A study of Mus musculus with 12 samples.

Results

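Rab GTPases and the EHD (Eps15 homology domain) proteins direct the traffic of membrane vesicles, and their transcripts were followed here in the aging ventral tegmental area (VTA), which lies in the midbrain and gives rise to dopaminergic projections. The members were taken from the array annotation. A gene counted as a member if its symbol was Rab followed by a number and at most 1 letter, or Ehd1, Ehd2, Ehd3 or Ehd4, and if a probe set was annotated to it alone. Rab3a, Rab3b and Rab3c of the synaptic vesicle were not included. This gave 60 genes with 136 probe sets, of 18193 genes with 34945 probe sets of 1 gene each. Of these, 56 were Rab genes with 124 probe sets and 4 were EHD genes with 12 probe sets. The rule for the Rab genes uses their names and no measured value. The EHD genes were added because Ehd1 was known to fall at 18 against 2 months in these data, so their values are given as a description and without a test.

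The mice were wild type (strain C57 per the labels, C57BL/6 per the study's methods) at 2 months of age (young), 10 months and 18 months (late middle-aged), with no treatment or transgene in any group. The whole VTA was dissected, and each of the 12 arrays, 4 per age, held RNA pooled from 5 mice. The authors normalised the arrays with the RMA method, which gives a log2 expression value for each probe set, and a difference of 1 on this scale is a doubling. Young arrays 3 and 4 correlated at 0.998, against 0.967 to 0.996 in 17 other same-age pairs. Because this pair differed less than any other replicates did, its mean entered as 1 sample, so that n was 3 at 2 months and 4 at each later age. Where values are listed, the young ones are array 1, array 2 and the mean of arrays 3 and 4, and the later ones are arrays 1 to 4.

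Rab proteins are small GTPases that switch between a GDP-bound form, held in the cytosol by a GDP dissociation inhibitor (GDI), and a GTP-bound form that sits on a membrane through a prenyl tail. Guanine nucleotide exchange factors (GEFs) turn them on, GTPase-activating proteins (GAPs) turn them off, and effectors such as tethers and motors read the active form, so that each Rab marks a compartment. EHD proteins are ATPases that shape and cut tubules of recycling endosomes, from which receptors return to the cell surface. In neurons these routes carry receptors, transporters and synaptic vesicle components along axons and dendrites.

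A call here means an adjusted p under 0.05 together with a change of over 1.3-fold, by limma with Benjamini-Hochberg adjustment over all 45037 probe sets tested. At 18 against 2 months 13 of 124 Rab probe sets (10.5%) were called, where 7.46% of all probe sets were. Of these, 11 were higher at 18 months (8.87%, against 4.55% of all probe sets) and 2 were lower (1.61%, against 2.91% of all). The 13 probe sets belonged to 11 genes: Rab2a, Rab2b, Rab4a, Rab8a, Rab11a, Rab18, Rab20, Rab28 and Rab40b with higher values, and Rab6b and Rab14 with lower ones. When each gene was represented by its brightest probe set, 4 of 56 Rab genes rose (7.14%, against 5.76% of all genes) and none fell by limma (3.06% of all genes did), whereas 42 of 124 probe sets had an unadjusted p under 0.05 (33.9%, against 23.6% of all). Those 4 genes were Rab2a, Rab18, Rab8a and Rab20. With each array centred on its median, 18 Rab probe sets were higher and 1 was lower, and over all probe sets 2540 were higher and 926 lower, against 2047 and 1312 in the main setting.

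**Figure D1:**
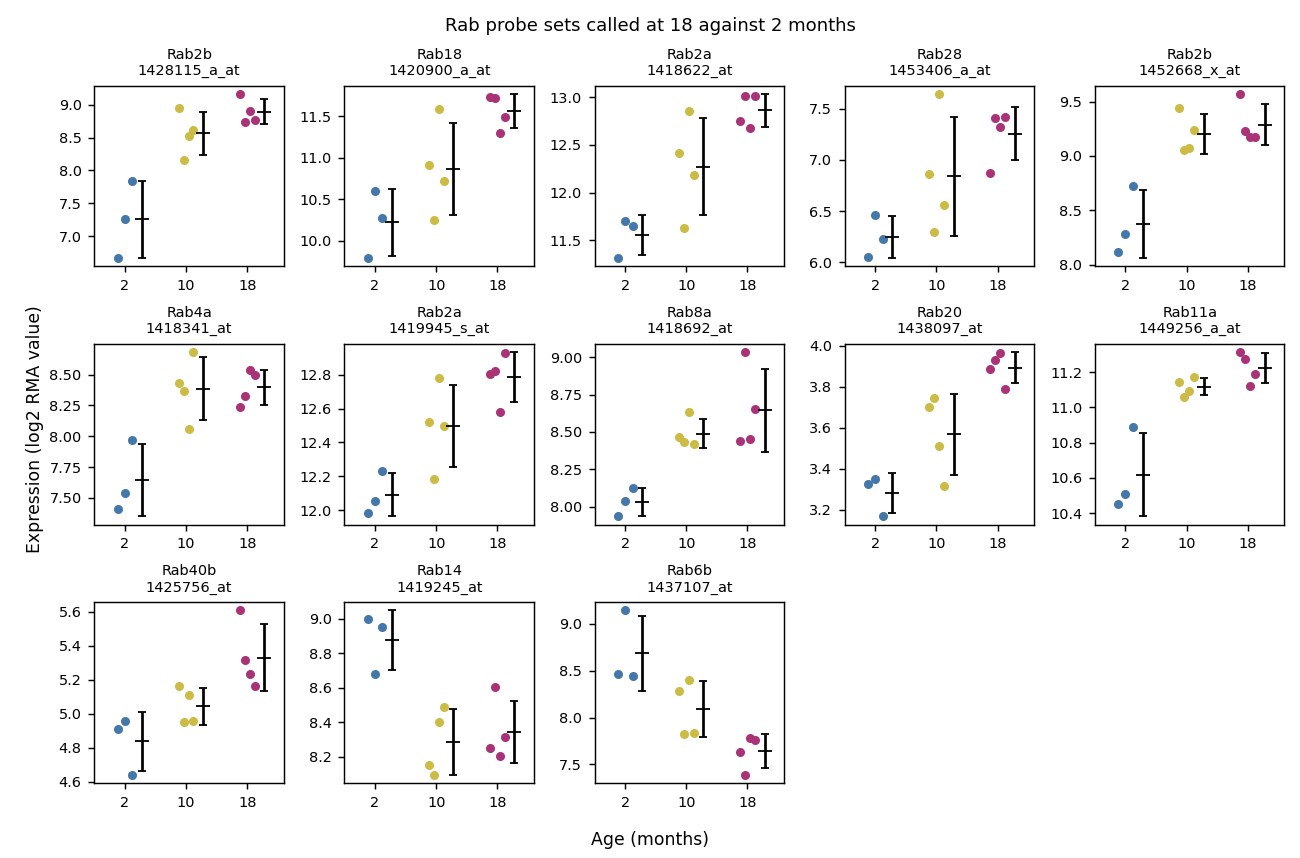
Expression in log2 RMA values (vertical axes, scaled to each panel and not starting at 0) of the 13 Rab probe sets called at 18 against 2 months, by age in months. Points are samples (n = 3, 4 and 4), and bars are the mean ± SD of each age. In every panel the 18-month samples lie apart from the young ones, above them in 11 panels and below them in those of Rab14 and Rab6b.

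The arrays of the ages also differed in their controls, which bears on every value here. Control probe sets read Actb and Gapdh near their 3′ and near their 5′ ends, and the gap between both grows as labelling stops short of the 5′ end. This 3′ to 5′ difference was 3.47 ± 0.17 at 2 months (SD, n = 3), 2.15 ± 0.34 at 10 months and 1.98 ± 0.24 at 18 months (SD, n = 4 each) on the log2 scale, and every later sample lay below every young one (two-sided exact permutation p = 0.0286 for either later age, the smallest p possible here). The mean of the 24 poly-A control probe sets, which read RNA added to each sample, was 6.06 ± 0.09, 6.38 ± 0.09 and 6.90 ± 0.33 at 2, 10 and 18 months (SD). With the 3′ to 5′ difference as a covariate no Rab probe set and no other probe set was called at 18 against 2 months. In that fit 12 of the 13 changes kept their sign, and the median size of the 13 was 0.64, against 0.76 without the covariate. The median SE of the Rab probe sets was 0.47, against 0.17. Since this measure set the young samples apart from all later ones, its part in a change and that of age cannot be told apart. Without young array 1 the count of 13 dropped to 1 (Rab2b), without young array 2 to 8, and without 10-month array 3 it was 22. Over all probe sets 2047 were called higher and 1312 lower with all samples. Without these arrays in turn the numbers were 294 and 129, 1066 and 602, and 3134 and 2192. The count of 4 genes at the brightest probe set became 0, 2 and 8 without these arrays in turn. It thus moved in the order of the calls over all probe sets, and shares of all genes are not given for these settings.

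As a check of the tissue, the dopaminergic genes Th and Slc6a3 were far above the dim limit at every age (mean log2 values of 13.8 and 14.1 at 18 months, 13.0 and 13.9 at 2 months). The mean of 9 dopaminergic genes lay between 11.6 and 11.8 at 18 months and between 11.5 and 11.6 at 2 months, with Th called higher and En1 and Foxa2 called lower at 18 months. The mean of 9 neuronal marker genes lay between 12.2 and 12.5 at 18 months, above 11.7 to 12.1 at 2 months, and that of 8 microglial marker genes between 8.79 and 9.24, above 8.28 to 8.61. The neuronal list held 3 genes that rose and 1 that fell, Rbfox3, and the microglial list 3 that rose. The mean of 8 astrocytic genes lay between 11.1 and 11.4 at 18 months, above 10.88 to 10.91 at 2 months, though none of them was called. The mean of 7 oligodendrocytic genes lay between 12.37 and 12.44 at 18 months, above 12.24 to 12.31 at 2 months, with Ermn called higher. The mean of 6 vessel genes overlapped (7.51 to 7.87 at 18 months, 7.60 to 7.79 at 2 months), with Pdgfrb called lower. Of the 5 choroid plexus genes, Clic6 was called higher at 18 months, Folr1 and Kl were dim at all ages, and Ttr averaged 8.29 at 2 months, 6.97 at 10 months and 6.36 at 18 months. The part of these shifts in the Rab values was not tested, and in whole tissue a change in the number of cells of a type and in RNA per cell cannot be told apart.

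Sequences upstream of 4 of the genes with a called probe set are shown because these genes span the pattern, Rab2b with the largest change, Rab8a and Rab11a with probe sets that rose, and Rab6b with one that fell. They are the 250 bases before the annotated start, from RefSeq on GRCm38.p6, for Rab2b at chr14:52279396-52279645 (minus strand), Rab8a at chr8:72160950-72161199 (plus strand), Rab11a at chr9:64737757-64738006 (minus strand) and Rab6b at chr9:103111824-103112073 (plus strand). Capitals mark matches on either strand to a GC box (GGGCGG) or a CCAAT box (CCAAT).
Rab2b: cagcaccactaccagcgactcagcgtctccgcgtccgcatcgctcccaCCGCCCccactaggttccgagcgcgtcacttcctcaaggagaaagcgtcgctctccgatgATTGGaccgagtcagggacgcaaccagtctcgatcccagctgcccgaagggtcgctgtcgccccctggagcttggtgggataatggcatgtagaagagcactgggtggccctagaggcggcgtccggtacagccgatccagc
Rab8a: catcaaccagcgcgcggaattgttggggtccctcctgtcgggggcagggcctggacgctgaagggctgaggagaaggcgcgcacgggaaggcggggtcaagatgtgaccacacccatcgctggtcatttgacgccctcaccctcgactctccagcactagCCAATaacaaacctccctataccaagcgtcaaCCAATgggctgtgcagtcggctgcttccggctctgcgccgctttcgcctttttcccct
Rab11a: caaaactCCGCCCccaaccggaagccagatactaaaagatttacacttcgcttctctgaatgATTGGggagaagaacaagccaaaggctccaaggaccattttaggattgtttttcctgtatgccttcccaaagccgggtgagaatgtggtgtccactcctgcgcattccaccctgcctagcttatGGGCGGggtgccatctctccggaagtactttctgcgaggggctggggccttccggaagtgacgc
Rab6b: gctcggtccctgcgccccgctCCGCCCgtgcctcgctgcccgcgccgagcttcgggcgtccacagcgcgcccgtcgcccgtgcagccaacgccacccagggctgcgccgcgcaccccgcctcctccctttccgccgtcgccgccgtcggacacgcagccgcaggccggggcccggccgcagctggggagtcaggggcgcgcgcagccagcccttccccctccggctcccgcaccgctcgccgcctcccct
Of the 56 Rab genes, 45 matched an entry of the RefSeq table. The GC box was found in 30 of these 45 windows (66.7%), against 32.9% of the 27025 windows of the table, and the CCAAT box in 20 (44.4%, against 34.5%). Among the Rab genes with a called probe set, 8 of 11 had an entry, of which 7 held a GC box and 5 a CCAAT box. A TATA box (TATAAA) was found in 3 of the 45 windows (6.67%, against 13.0%) and in none of these 8. Such a match is a description of letters and not of a bound site.

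The Rabs of the endoplasmic reticulum (ER) and Golgi held the largest changes. Of 10 such genes, 7 had positive changes at the brightest probe set at 18 against 2 months, 2 were called higher and the median log2 change was 0.29, where that of all 56 Rab genes was 0.18 and that of all genes −0.02.

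Rab2b and Rab2a work between the Golgi and the ER and in the fusion of late compartments. The Rab2b probe set 1428115_a_at had log2 values of 6.67, 7.27 and 7.83 at 2 months, 8.95, 8.16, 8.53 and 8.62 at 10 months, and 9.16, 8.73, 8.91 and 8.77 at 18 months. All later samples were above all young ones, and the young samples were the most spread. The log2 change at 18 against 2 months was 1.64 ± 0.25 (SE), or 3.12-fold (limma adjusted p = 0.0061). The Rab2b probe set 1452668_x_at had values of 8.12, 8.28 and 8.72 at 2 months, 9.44, 9.05, 9.08 and 9.23 at 10 months, and 9.57, 9.23, 9.18 and 9.18 at 18 months. The groups again did not overlap (change at 18 months 0.91 ± 0.16 SE, adjusted p = 0.010). The brightest Rab2b probe set, 1452667_at, had a negative change and was not called, with values of 10.83, 10.43, 10.50 and 10.21 at 18 months, against 10.98, 10.72 and 11.10 at 2 months (change −0.44 ± 0.18 SE, adjusted p = 0.17). The remaining Rab2b probe sets had changes of 0.51 and 0.15. A suffix of _x_at marks probes that can bind other transcripts and _s_at marks probes shared among several transcripts, so such values are less certain in their source.

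Rab2a had 7 probe sets, of which the 3 brightest had positive changes and the others negative ones. Probe set 1418622_at had values of 11.31, 11.70 and 11.66 at 2 months, 12.42, 11.63, 12.86 and 12.18 at 10 months, and 12.75, 13.01, 12.68 and 13.01 at 18 months. All 18-month samples were above all young ones, whereas 10-month array 2 fell among them. The change at 18 against 2 months was 1.31 ± 0.23 (SE, adjusted p = 0.010). The brightest, 1419945_s_at, rose by 0.69 ± 0.14 (SE, adjusted p = 0.017), and 1418621_at had a change of 0.66 ± 0.31 (SE, adjusted p = 0.23). The other 4 had changes between −1.15 and −0.01, with 1449676_at at −1.15 ± 0.44 (SE, adjusted p = 0.14), and none was called.

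Rab18 acts at the ER and on lipid droplets, and its loss causes a developmental syndrome of eye and brain in humans. Its brightest probe set, 1420900_a_at, had values of 9.79, 10.60 and 10.27 at 2 months, 10.91, 10.25, 11.58 and 10.72 at 10 months, and 11.73, 11.72, 11.30 and 11.49 at 18 months. The 18-month samples lay above all young ones, and those of 10 months lay between and overlapped with both. The change at 18 against 2 months was 1.34 ± 0.27 (SE), or 2.53-fold (adjusted p = 0.017). The other probe set, 1420899_at, had a change of 1.03 ± 0.33 (SE, adjusted p = 0.081), and its groups did not overlap either.

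Rab6b, the neuronal form of a Rab that returns cargo to the Golgi, held a probe set that fell. Probe set 1437107_at had values of 8.47, 9.14 and 8.45 at 2 months, 8.29, 7.83, 8.40 and 7.84 at 10 months, and 7.64, 7.39, 7.79 and 7.76 at 18 months. Each later age lay wholly below the one before, with a change of −1.04 ± 0.20 (SE) at 18 against 2 months (adjusted p = 0.013). The brightest Rab6b probe set, 1434914_at, had a change of −0.02 ± 0.12 (SE, adjusted p = 0.93), while 1455924_at had one of 0.58 ± 0.16 (SE, adjusted p = 0.054) and 1460617_s_at one of −0.14. At the brightest probe set, the related Rab6a, present in most cells, had a change of 0.49 ± 0.14 (SE, adjusted p = 0.052). Rab1a, which takes vesicles from the ER to the Golgi, had one of 0.38 ± 0.11 (SE, adjusted p = 0.054). Both had no overlap between 18 and 2 months. Other Rab6a probe sets had 0.52 ± 0.34, without overlap, and −0.17 ± 0.30, with overlap (SE). Rab1a probe set 1448210_at had 0.08 ± 0.16 (SE) and the dim 1457537_at −0.02, both with overlap. The remaining members of the group, Rab1b, Rab30, Rab33b and Rab43, had changes between −0.53 and 0.41 at their brightest probe sets and were not called.

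The Rabs of exocytosis and secretion comprised 9 genes, of which 6 had positive changes and 1 was called (median 0.18). Rab8a carries cargo to the plasma membrane and the cilium and, like Rab10 and Rab12, is phosphorylated by the Parkinson's disease kinase LRRK2. Its brightest probe set, 1418692_at, had values of 7.93, 8.04 and 8.12 at 2 months, 8.47, 8.43, 8.63 and 8.42 at 10 months, and 8.44, 9.03, 8.45 and 8.66 at 18 months. All later samples were above all young ones (change at 18 months 0.61 ± 0.14 SE, adjusted p = 0.026). Another Rab8a probe set, 1440620_at, had a change of −0.56 ± 0.25 (SE, adjusted p = 0.21), with all 18-month samples below the young ones. Rab10, which delivers membrane and transporters to the cell surface, had a change of 0.45 ± 0.20 (SE, adjusted p = 0.19) at its brightest probe set. Its probe set 1422664_at had −0.34 ± 0.11 (SE, adjusted p = 0.094), with all 18-month samples below the young ones. The remaining one, 1429296_at, had 0.56 ± 0.58 (SE, adjusted p = 0.61). Rab27b and Rab27a, which dock secretory granules, had changes of 0.40 ± 0.16 and −0.16 ± 0.13 (SE) at their brightest probe sets, neither called. The others, Rab3d, Rab8b, Rab13, Rab26 and Rab37, lay between −0.08 and 0.31 at their brightest probe sets.

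**Figure D2:**
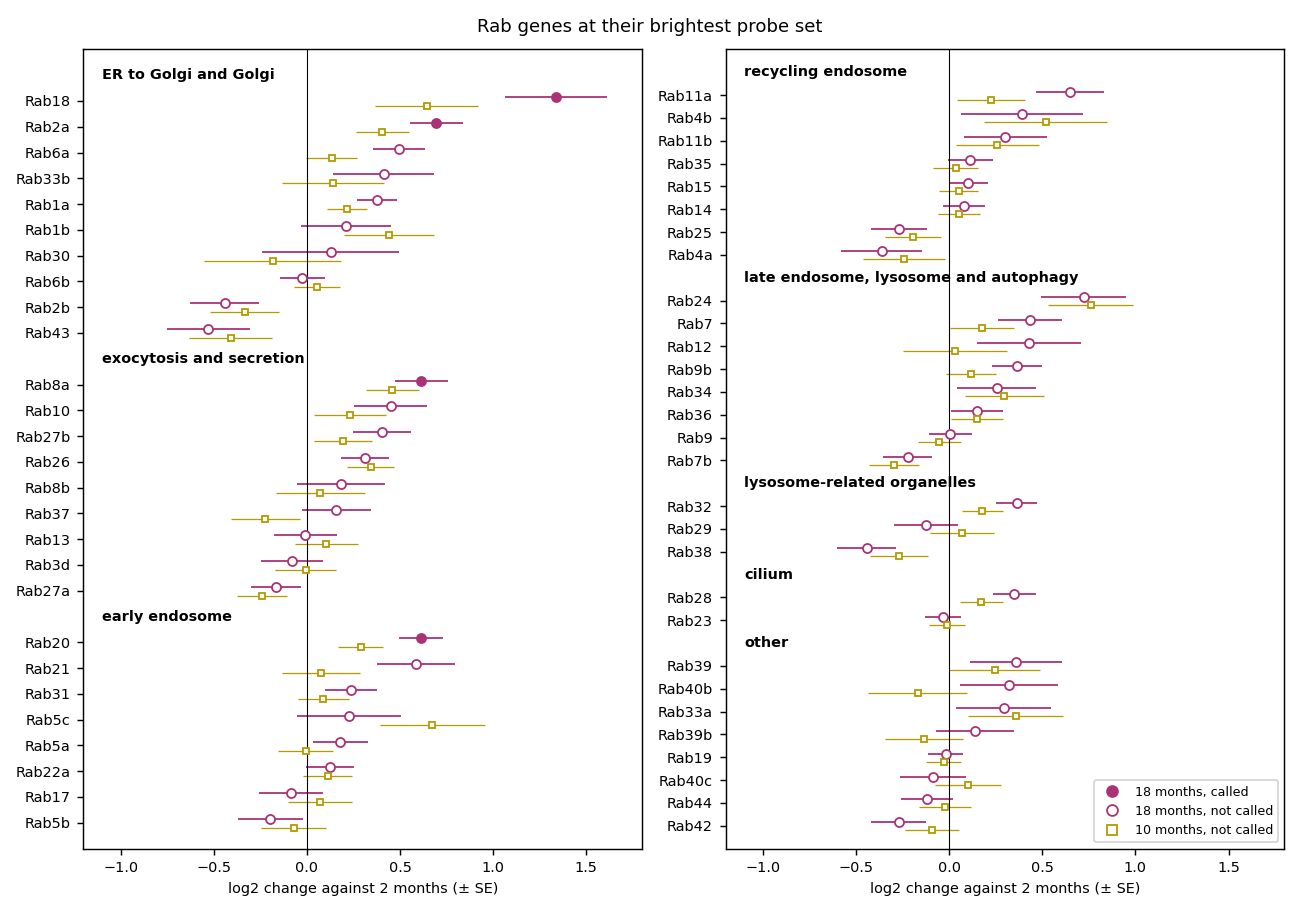
Log2 change against 2 months (horizontal axis, bars are SE from the fit) of the 56 Rab genes at their brightest probe set, grouped by role, at 18 months (circles) and at 10 months (squares). Filled circles mark the 4 called genes Rab18, Rab2a, Rab8a and Rab20, and no gene was called at 10 months.

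Of the 8 Rabs of the early endosome, where internalised receptors are sorted, 6 had positive changes (median 0.20). Rab20, which takes part in the maturation of phagosomes, was the only one called. Its single probe set had values of 3.33, 3.35 and 3.17 at 2 months, 3.70, 3.75, 3.51 and 3.32 at 10 months, and 3.89, 3.93, 3.97 and 3.79 at 18 months. The 18-month samples were above all others (change against 2 months 0.61 ± 0.12 SE, adjusted p = 0.013). All these values were dim, that is, under 4.48, the smallest lower quartile found on any array. Rab20 was the only Rab gene dim at its brightest probe set, and 8 of the 124 Rab probe sets were dim. The classical early endosome Rabs had changes of 0.18 ± 0.15 for Rab5a, −0.20 ± 0.18 for Rab5b and 0.23 ± 0.28 for Rab5c (SE), none called. Rab21, which follows integrins, had a change of 0.59 ± 0.21 (SE, adjusted p = 0.11) with no overlap at its brightest probe set. Its other probe set had −0.35 ± 0.29 (SE, adjusted p = 0.51). Rab17, Rab22a and Rab31 had −0.09, 0.13 and 0.24 at their brightest.

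Of the 8 Rabs of recycling endosomes 6 had positive changes and none was called at the brightest probe set (median 0.11), though 3 had another probe set that was. Rab11a marks the slow recycling compartment. Probe set 1449256_a_at of Rab11a had values of 10.45, 10.51 and 10.89 at 2 months, 11.15, 11.06, 11.09 and 11.17 at 10 months, and 11.31, 11.27, 11.12 and 11.19 at 18 months. The later samples were close together and all above the young ones (change at 18 months 0.61 ± 0.12 SE, adjusted p = 0.013). The brightest, 1434549_at, had a change of the same sign and size, 0.65 ± 0.18 (SE, adjusted p = 0.054), and its 18-month samples were also above all young ones. Rab11b had 0.30 ± 0.22 (SE, adjusted p = 0.46) at its brightest probe set, and −0.25 ± 0.12 and −0.26 ± 0.15 (SE) at the others, none called.

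Rab4a marks the fast recycling route, and its probe sets differed in direction. Probe set 1418341_at had values of 7.41, 7.54 and 7.97 at 2 months, 8.43, 8.37, 8.06 and 8.68 at 10 months, and 8.24, 8.32, 8.53 and 8.50 at 18 months, with all later samples above the young ones (change at 18 months 0.76 ± 0.17 SE, adjusted p = 0.022). The brighter 1449048_s_at had values of 10.10, 10.15, 10.31 and 10.15 at 18 months, against 10.50, 10.45 and 10.66 at 2 months. There the 18-month samples were all lower (change −0.36 ± 0.22 SE, adjusted p = 0.35).

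Rab14, which works between the Golgi and endosomes, had 7 probe sets with changes from −0.53 to 0.60. The one called, 1419245_at, had values of 9.0, 8.68 and 8.95 at 2 months, 8.15, 8.10, 8.40 and 8.49 at 10 months, and 8.25, 8.60, 8.20 and 8.31 at 18 months. All later samples were below the young ones (change at 18 months −0.53 ± 0.14 SE, adjusted p = 0.042). The brightest, 1419246_s_at, had a change of 0.08 ± 0.11 (SE, adjusted p = 0.73). Rab35, which recycles synaptic and membrane proteins, had a change of 0.11 ± 0.12 (SE), and Rab4b, Rab15 and Rab25 lay between −0.27 and 0.39.

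At the brightest probe set, the Rabs of late endosomes, lysosomes and autophagy had the highest median of the groups, 0.31. Of these 8 genes, 7 were positive and none was called by limma. The highest change was that of Rab24, a Rab of autophagy, whose 2 probe sets had changes of 0.72 ± 0.23 and 0.66 ± 0.22 (SE, adjusted p = 0.078 and 0.088). Rab7, which matures late endosomes, had values of 12.61, 12.80, 12.72 and 13.07 at 18 months, against 12.33, 12.30 and 12.46 at 2 months. These did not overlap, with a change of 0.43 ± 0.17 (SE, adjusted p = 0.15). Rab9, which returns receptors to the Golgi, had a change of 0.01 ± 0.12, and Rab9b one of 0.37 ± 0.14 (SE). Rab7b, Rab12, Rab34 and Rab36 lay between −0.22 and 0.43 at their brightest probe sets. Rab12 probe set 1457783_at had −0.70 ± 0.24 (SE, adjusted p = 0.098). Rab7b probe set 1435830_a_at had −0.49 ± 0.18 (SE, adjusted p = 0.12), with all 18-month samples below the young ones, and its dim 1444063_at had −0.09. The other probe set of Rab34 had −0.35 ± 0.24 (SE), and those of Rab36 had 0.24 and 0.25.

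Of the 3 Rabs of lysosome-related organelles, Rab32 had a change of 0.36 ± 0.11 (SE, adjusted p = 0.068), Rab38, its partner in pigment granules, of −0.44 ± 0.16 (SE, adjusted p = 0.11), and Rab29, a Parkinson's disease candidate gene, of −0.12 ± 0.17 (SE). The cilium group held Rab23, a negative regulator of Hedgehog signalling, with a change of −0.04 ± 0.10 (SE) at its brightest probe set, and Rab28. Rab23 probe set 1452113_a_at had a change of 0.47 ± 0.19 (SE, adjusted p = 0.15), with all 18-month samples above the young ones. The dim 1422399_a_at had 0.46 ± 0.44 (SE). The Rab28 probe set 1453406_a_at had values of 6.05, 6.46 and 6.23 at 2 months, 6.86, 6.29, 7.64 and 6.56 at 10 months, and 6.87, 7.41, 7.33 and 7.42 at 18 months. The 18-month samples were above the young ones while those of 10 months overlapped with both (change at 18 against 2 months 1.01 ± 0.27 SE, adjusted p = 0.043). The brightest Rab28 probe set had a change of 0.35 ± 0.12 (SE, adjusted p = 0.092).

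Of the 8 remaining Rabs 4 had positive changes (median 0.06). Rab40b, whose protein joins a ubiquitin ligase, had a probe set called, 1425756_at, with values of 4.91, 4.96 and 4.64 at 2 months, 5.16, 4.95, 5.11 and 4.96 at 10 months, and 5.61, 5.31, 5.23 and 5.16 at 18 months. All 18-month samples were above the young ones (change 0.49 ± 0.13 SE, adjusted p = 0.042). Its brightest probe set had a change of 0.32 ± 0.26 (SE, adjusted p = 0.51). Rab39b, whose loss causes parkinsonism in humans, had a change of 0.14 ± 0.21 (SE) at its brightest probe set and of −0.96 ± 0.29 (SE, adjusted p = 0.070) at the other. Rab19, Rab33a, Rab39, Rab40c, Rab42 and Rab44 lay between −0.27 and 0.36 at their brightest probe sets.

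Over the family, the ranges of 18 and 2 months did not overlap in 39 of 124 Rab probe sets (31.5%, against 23.6% of all probe sets), and 27 of the 39 were higher at 18 months. Positive changes were found for 38 of 56 Rab genes at the brightest probe set (67.9%, against 46.2% of all genes) and for 71 of 124 Rab probe sets (57.3%, against 40.4% of all). The quartiles of the change at the brightest probe set were −0.05 and 0.38 for Rab genes, and −0.19 and 0.21 for all genes. With the 3′ to 5′ difference as a covariate the order of the medians over probe sets turned round, with 0.012 for the Rab probe sets and 0.036 for all at 18 against 2 months, where without it they were 0.11 and −0.06. At 10 against 2 months they were −0.035 and 0.055 with the covariate, and 0.06 and −0.01 without it. The covariate set the young samples apart from all later ones, so its part in these medians and that of age cannot be told apart.

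Probe sets of the same Rab gene did not always agree in sign. Of the 56 Rab genes, 36 had several probe sets, and 20 of these held changes of both signs at 18 against 2 months. Changes near 0 were included, such as −0.01 for Rab2a 1436477_x_at. The same share was not counted over all genes, so it is not shown to be particular to Rab genes. Among the 11 genes with a called probe set, 10 had several, and in 6 of these another probe set had the opposite sign, namely Rab2a, Rab2b, Rab4a, Rab6b, Rab8a and Rab14. Of the 23 other probe sets of called genes that were not dim, 12 had the sign of the call (52.2%). Rab11a, Rab18, Rab28 and Rab40b had a single sign over all their probe sets. The deposited values do not say which part of a transcript a probe set reads, and the 3′ to 5′ difference of the arrays moved with age, so the main results keep these probe sets apart.

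**Figure D3:**
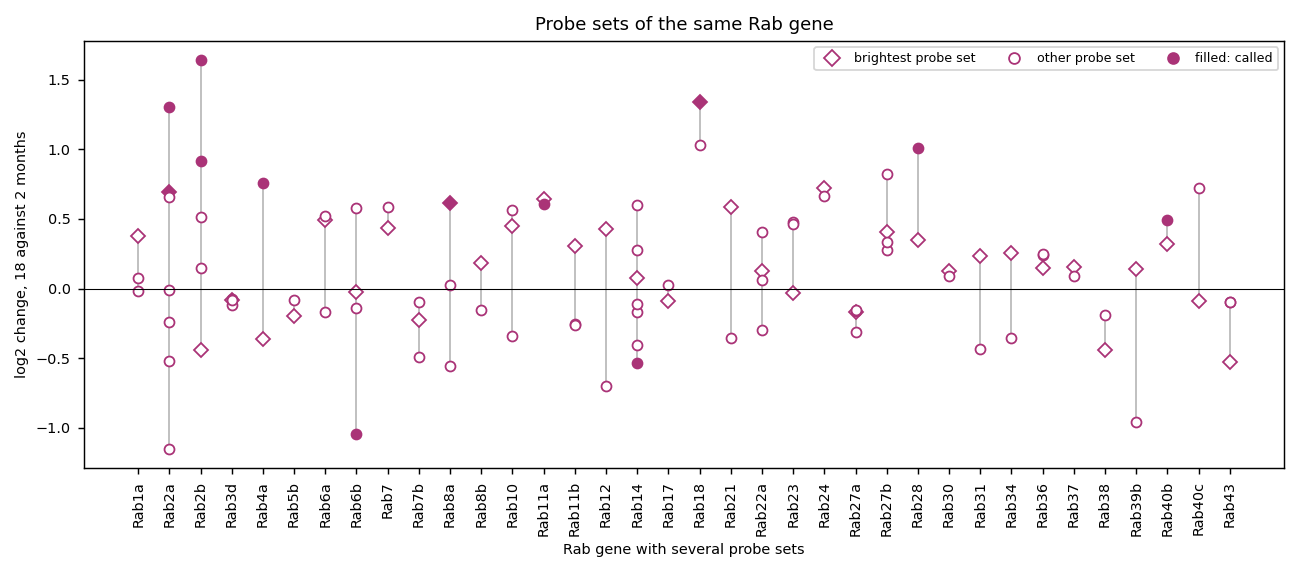
Log2 change at 18 against 2 months (vertical axis) of every probe set of the 36 Rab genes with several probe sets (horizontal axis), joined by a line for each gene. Diamonds mark the brightest probe set and filled symbols the called ones. In Rab2b, Rab4a and Rab6b the called probe set was not the brightest and lay far from it.

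At 10 against 2 months, a comparison that shares the young samples with the one above, 2 of 124 Rab probe sets were called, both higher (1.61%, where 1.36% of all probe sets were called and 0.837% were called higher). Both belonged to Rab2b, with changes of 1.31 ± 0.25 (SE, adjusted p = 0.040) for 1428115_a_at and 0.83 ± 0.16 (SE, adjusted p = 0.042) for 1452668_x_at. At the brightest probe set no Rab gene was called by limma (1.48% of all genes were), while 28 of 124 Rab probe sets had an unadjusted p under 0.05 (22.6%, against 15.6% of all). The median change at the brightest probe set was 0.08, where that of all genes was 0.02, and it was 0.12 without 10-month array 2. The 2 calls were lost without young array 1 or 2, without 10-month array 1 or 4, and without any of the 18-month arrays, which add to the common estimate of the spread. There were 6 calls without 10-month array 3, and 4 without the sample made of young arrays 3 and 4. Over all probe sets these 2 settings gave 629 higher and 627 lower, and 769 and 507, against 377 and 236 in the main fit. Leaving out young array 1 left 1 higher and 0 lower, and leaving out 18-month array 2 left 33 and 20.

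At 18 against 10 months no Rab probe set was called by limma, where 0.00222% of all probe sets were (1 probe set), and 13 of 124 Rab probe sets had an unadjusted p under 0.05 (10.5%, against 5.06% of all). The highest change was that of Rab18, 0.70 ± 0.25 (SE, adjusted p = 0.85). The contrast that compares the change from 2 to 10 months with that from 10 to 18 months gave no Rab probe set and no other probe set below an adjusted p of 0.05, and 10 Rab probe sets had an unadjusted p under 0.05 (8.06%, against 5.47% of all). For Rab2b (1428115_a_at) the changes were 1.31 in the first interval and 0.33 in the second, and for Rab18 they were 0.64 and 0.70.

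The 4 EHD genes differed among themselves. Ehd1, which returns receptors from recycling endosomes to the surface, had at its brightest probe set, 1416010_a_at, values of 10.25, 10.01 and 9.71 at 2 months, 8.77, 9.68, 8.63 and 8.84 at 10 months, and 8.58, 8.67, 8.32 and 8.53 at 18 months. All later samples were below all young ones, 10-month array 2 by the smallest margin. The change was −1.46 ± 0.23 (SE) at 18 months and −1.01 ± 0.23 (SE) at 10 months, and this fall is what placed the EHD genes here. The other Ehd1 probe sets had smaller changes at 18 months, −0.49 ± 0.15 for 1416011_x_at, which also did not overlap, −0.21 ± 0.20 for 1416012_at and −0.08 ± 0.16 for 1448175_at (SE).

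Ehd4, which also acts on endosomes, had a single probe set with values of 7.57, 8.04 and 8.30 at 2 months, 8.77, 8.48, 8.50 and 8.52 at 10 months, and 9.05, 8.61, 8.56 and 8.49 at 18 months. All later samples were above the young ones, opposite to Ehd1 (change 0.71 ± 0.18 SE at 18 months and 0.60 ± 0.18 SE at 10 months). Ehd3, which tubulates recycling endosomes, had changes at 18 months of 0.36 ± 0.20 and −0.13 ± 0.18 (SE) at its probe sets, and the ages overlapped. Ehd2, a protein of caveolae, had 5 probe sets with changes between −0.26 and 0.08, of which 2 were dim. In all, 3 of the 12 EHD probe sets (25%) did not overlap between 18 and 2 months, where 23.6% of all probe sets did not.

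**Figure D4:**
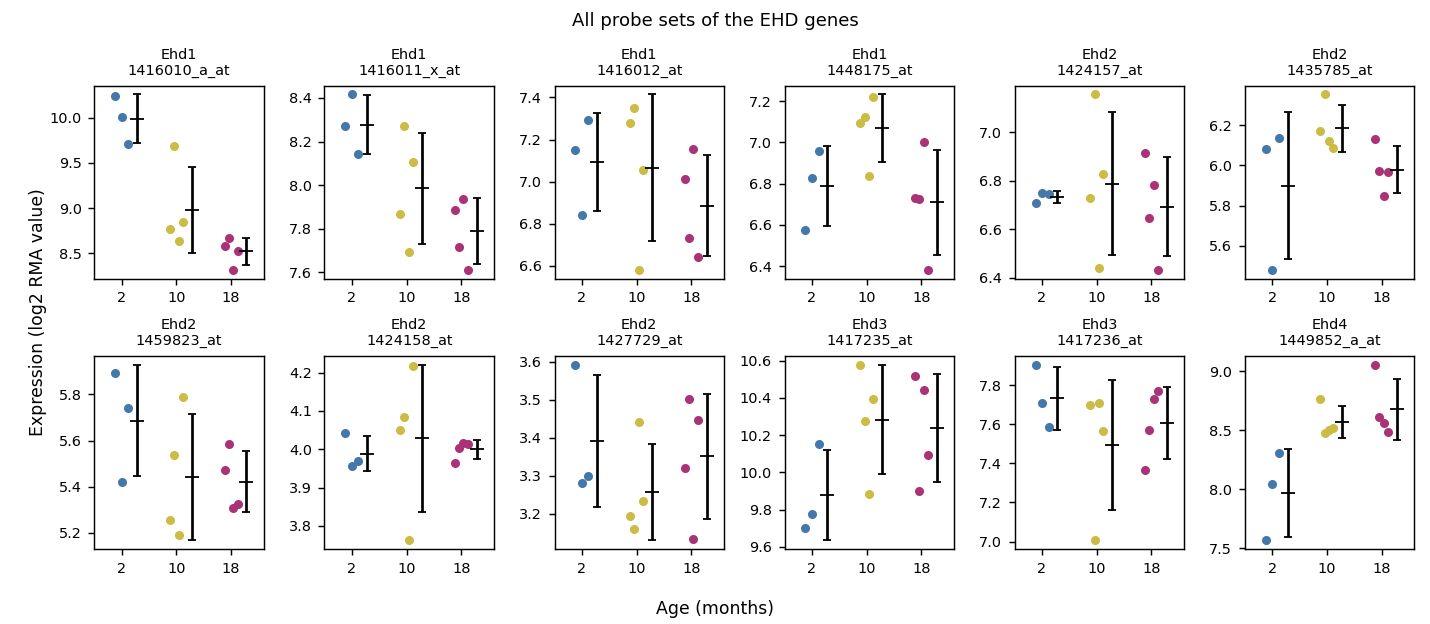
Expression in log2 RMA values (vertical axes, scaled to each panel and not starting at 0) of the 12 EHD probe sets by age in months. Points are samples (n = 3, 4 and 4), and bars are the mean ± SD. Ehd1 1416010_a_at and 1416011_x_at lie lower and Ehd4 higher at 18 months than at 2 months, without overlap, and the ages overlap in the other panels.

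Genes that act on Rab and EHD proteins were counted at their brightest probe set, where 5.76% of all genes rose and 3.06% fell at 18 against 2 months. Of 7 genes that prenylate or chaperone Rabs, 2 rose (28.6%), none fell and the median change was 0.62. These were Rabggtb, the beta subunit of the enzyme that adds the prenyl tail (11.3 ± 0.2 at 18 months, 10.6 ± 0.4 at 2 months, SD, change 0.78 ± 0.20 SE, adjusted p = 0.037), and Rabif, which binds nucleotide-free Rabs (change 0.62 ± 0.16 SE, adjusted p = 0.037). The 5 uncalled genes had changes of 0.81 ± 0.41 for Rabac1, 0.65 ± 0.28 for Chml, 0.51 ± 0.20 for Rabggta, −0.05 ± 0.10 for Gdi2 and −0.15 ± 0.30 for Chm (SE).

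Of 32 GEFs, none rose and 2 fell (6.25%), with a median of −0.019, where that of all genes was −0.025. Rabgef1, which activates Rab5, had a change of −0.75 ± 0.17 (SE, adjusted p = 0.026), and Ric1, part of the activator of Rab6, of −0.75 ± 0.15 (SE, adjusted p = 0.014). Of 38 GAPs, 4 rose (10.5%) and 2 fell (5.26%), with a median of 0.11. The highest change was that of Tbc1d23, a protein of endosome-to-Golgi traffic without known GAP activity, 1.01 ± 0.21 (SE, adjusted p = 0.019), followed by Rabgap1l with 0.76 ± 0.13 (SE, adjusted p = 0.0089), Tbc1d19 with 0.68 and Sgsm3 with 0.56. The lower ones were Tbc1d24, a gene of human epilepsy, with −0.73 ± 0.14 (SE, adjusted p = 0.012), and Tbc1d2 with −0.49.

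Of 36 effectors, 4 rose (11.1%) and 2 fell (5.56%), with a median of −0.04. Eea1, the tether that binds Rab5 on early endosomes, had a change of 1.24 ± 0.26 (SE, adjusted p = 0.019) and Pik3c3, the lipid kinase Vps34, of 1.16 ± 0.24 (SE, adjusted p = 0.017). Uso1, a Rab1 tether at the Golgi, had 0.83 and Vps41, a subunit of the tether that fuses late endosomes with lysosomes, 0.66. Mical1 and Rilpl1, which bind Rab8 and its relatives, had −0.79 and −0.58. Of 15 retromer and sorting genes 2 rose (13.3%), Vps35, the core retromer subunit mutated in familial Parkinson's disease (0.76 ± 0.16 SE, adjusted p = 0.017), and Snx2 (0.73 ± 0.19 SE, adjusted p = 0.037), and none fell (median 0.28). Of 13 EHD partners 1 rose (7.69%), Stx12, a SNARE of recycling endosomes (1.03 ± 0.27 SE, adjusted p = 0.041). No gene of these 6 lists was called at 10 against 2 months by limma, where only 1.48% of all genes were.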

How the data were processed

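RNA of pooled VTA was hybridised to Affymetrix mouse genome arrays, of which 12 were used. RMA normalisation was done by the authors, so that each deposited value is on the log2 scale, 1 value per probe set and array. According to the submitters' processing notes, limma 3.4.5 was also used. Values ran from 2.40 to 14.7, and an array has no read depth, so the number of arrays limits the precision. Replicates are separate pools per the labels, and p-values measure the spread between pools.

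Of 45101 probe sets, 64 controls were left out. Of the 45037 tested, 34945 were annotated to 1 gene, 932 to several and 9160 to none. All 136 member probe sets matched a RefSeq gene table by gene number, with no change of symbol. The array annotation names no genome build, so only the RefSeq promoters carry coordinates. Their orientation was checked on the position of the TATA box.

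The 3 ages entered a single fit in limma 3.58.1 (R 4.3.3; lmFit, contrasts.fit, eBayes), with 1 mean for each age and without covariates, after averaging young arrays 3 and 4. The script was tested on simulated data. Adjustment of p followed Benjamini-Hochberg, and the thresholds (adjusted p under 0.05, change over 1.3-fold) are those of the study's methods. Errors of changes are SE of this fit. A probe set was dim when its mean was under the smallest lower quartile of the arrays. The brightest probe set of a gene had the highest mean over all arrays. Named were all EHD genes, every Rab gene with a call or with probe sets of opposite sign beside one, and Rabs known for their roles. The other Rab genes, and the list genes that were not called, were named after their values were seen. The members, roles and lists were chosen with earlier results of these data known, and no list was tested. Alternatives were 12 separate arrays, a replicate block, median centring, the 3′ to 5′ covariate, an intensity trend, a filter on dim probe sets, the mean of a gene's probe sets, only the ages compared, and leaving out each array.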

Additional observations from a re-analysis of the deposited data

Results flagged for a closer look

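In 5 of 104 groups of 4 samples examined 1 sample lay far from the other 3, and chance marks about 1 group in 20. In 10-month array 3, Rab31 was at 11.6, above 11.2 in the other 3, and Rab38 (1439628_x_at) at 6.47, below 7.02 to 7.12. In 10-month array 1, Ehd4 was at 8.77, above 8.48 to 8.52. In 18-month array 1, Rab2b (1452668_x_at) was at 9.57, above 9.18 to 9.23, and Rab28 (1453406_a_at) at 6.87, below 7.33 to 7.42. The causes were not tested.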

How the results depend on the processing

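The 13 Rab probe sets called at 18 against 2 months became 21 with 12 separate arrays and 0 with the 3′ to 5′ covariate, and 1 (without young array 1) to 22 (without 10-month array 3) when an array was left out, with 8 without young array 2. The 2 calls at 10 against 2 months became 4 with separate arrays, 5 with median centring, 0 with the covariate, the intensity trend or only the ages compared, and 0 to 6 when an array was left out. They were also 0 without the 4 arrays on the positive side of the first principal component (young 2, 10-month 3, 18-month 2 and 4). This alternative was chosen after seeing the data. Over all probe sets, calls at 18 months were 2047 higher and 1312 lower in the main setting, and 2632 and 1828 with separate arrays. They were 294 and 129 without young array 1, 3134 and 2192 without 10-month array 3, and 0 with the covariate. At 10 months the main setting gave 377 and 236, separate arrays 590 and 387, and median centring 541 and 162. The intensity trend gave 108 and 73, leaving out 10-month array 3 gave 629 and 627, and the covariate 0. Of the genes at their brightest probe set, 4 were called at 18 months. There were 8 with separate arrays or median centring, 0 with the covariate, 7 with only the ages compared, 2 without those 4 arrays, and 0 (without young array 1) to 8 (without 10-month array 3) when an array was left out. The mean of a gene's probe sets gave 5. Over all probe sets, only the ages compared gave 2400 higher and 1503 lower, and leaving out those 4 arrays gave 1813 and 1597. Shares of all genes are not given for these settings.

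The median change of the Rab genes at 18 against 2 months, 0.18, was 0.24 with median centring, 0.065 with the covariate and 0.16 to 0.20 when an array was left out. At 10 against 2 months, 0.08 became 0.13, 0.050 and 0.056 to 0.12, and 0.035 without the 4 arrays. Median centring moved the medians of all probe sets as well. At 18 against 2 months they went from 0.11 to 0.17 for Rab probe sets and from −0.06 to 0.004 for all. At 10 against 2 months they went from 0.06 to 0.10 and from −0.01 to 0.04. With the covariate the medians at 18 against 2 months were 0.012 for Rab probe sets and 0.036 for all. Median centring gave 18 higher and 1 lower Rab probe sets at 18 months, against 11 and 2 in the main setting, and over all probe sets 2540 higher and 926 lower, against 2047 and 1312. With the covariate Rab28 (1453406_a_at) turned to −0.026. The other 12 called probe sets kept their direction in every alternative run. Leaving out arrays could hardly turn the direction, since the called probe sets had no overlap between 18 and 2 months. Rab2b (1428115_a_at) was called in 20 of 21, Rab18, Rab2a (1418622_at) and Rab6b in 19, Rab28 in 11, Rab40b in 10 and Rab14 in 9. The cause was not tested.

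With the replicate number as a block on the 12 arrays as separate samples, 12 Rab probe sets were called at 18 months and 0 at 10 months. Without the block these arrays gave 19 higher and 2 lower at 18 months, and 3 and 1 at 10 months. Over all probe sets, calls at 18 months were 1555 higher and 993 lower with the block, and 2632 and 1828 without it. At 10 months they were 2 and 1 with it, and 590 and 387 without it. No pairing of the samples by replicate number was seen in the values, though this check cannot exclude one. For the check, the mean of each age was subtracted from every probe set, and the remaining deviations of the arrays were correlated. Correlations of the deviations of same-numbered arrays ran from −0.61 to 0.43, and 4 of 12 were over 0.1. No array correlated best in these deviations with an array of its own number at another age.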
